A study of Homo sapiens with 9 samples.

Results

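The genes described here are the receptors and ligands of the epidermal growth factor receptor (EGFR) family together with ERRFI1, an intracellular inhibitor of the receptors, in MIA PaCa-2 cells. They were picked out of the table by gene symbol and number 10 of the 58735 genes in the count table. The receptors are EGFR, ERBB2 and ERBB3, and the ligands are AREG, EREG, HBEGF, TGFA, BTC and NRG1. MIA PaCa-2 is an established pancreatic cancer cell line. Cells received 0.1% DMSO as the vehicle control, 1 μM SCH772984, an inhibitor of ERK1/2, or 1 μM compound 1, which inhibits both TBK1 and IKKε. All cells were of the same line, labelled wild type, were kept in the same serum-supplemented medium and were harvested after 24 h, with 3 libraries per condition. The comparisons ask how RNA for the receptors and for the cells' own ligands differed when ERK1/2 or TBK1 and IKKε were inhibited. One line grown in culture limits the values to that line, and RNA levels give no measure of receptor protein, ligand release or receptor phosphorylation.

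The ligands of this family are made as membrane-anchored precursors that proteases, mainly of the ADAM family, cut free from the cell surface. A ligand brings receptors together in pairs, the paired kinases phosphorylate each other, and adaptors such as GRB2 and SHC1 link them to the ERK cascade. ERBB2 has no known ligand of its own and acts as a partner, ERBB3 has a very weak kinase and is bound by neuregulins such as NRG1, and ERRFI1 (also called MIG6) is a feedback inhibitor that binds the kinase domain. EGFR signaling is well studied in pancreatic cancer.

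Library totals were 9464432 to 10286223 counts with DMSO, 9652741 to 9840769 with compound 1 and 11056977 to 13887859 with SCH772984. Of 12 genes that report ERK activity, the 11 that could be tested fell with SCH772984 (median log2 fold change -5.24), beside 35.5% of all genes, and with compound 1 none passed the adjusted threshold while 1 was higher and 3 were lower at an unadjusted p under 0.05, beside 7.35% and 7.69% of all genes. Compound 1 replicate 1 stood apart from the other libraries of its group. Leaving it out took the genes called with compound 1 from 63 to 453 higher and from 48 to 798 lower, so the values of members with compound 1 are given with and without it. Of the epithelial markers, KRT8, KRT18 and KRT19 were abundant, whereas EPCAM was at 0 in every library and CDH1 and KRT7 had at most 5 counts, so that the epithelial label rested on keratins. Leukocyte markers had at most 1 count. Of the endothelial markers, PECAM1 and VWF had at most 4 counts, and CDH5 had 28 to 40 counts with DMSO, 60 to 63 with compound 1 and 0 to 4 with SCH772984, a fall called by edgeR (adjusted p = 1.77e-11). The fibroblast markers DCN and LUM had at most 1 count, and the other 3 fibroblast markers, COL1A1, COL1A2 and PDGFRB, rose with SCH772984. The summed level of the 5 fibroblast markers was 457.9 to 507 CPM (the counts divided by the scaled library total) with DMSO and 994 to 1123 CPM with SCH772984. Nearly all of it was COL1A2, with means of 482 and 1039 CPM, while COL1A1 and PDGFRB had at most 4 counts in any DMSO library. The summed level of the 6 epithelial markers was 3470 to 3734 CPM with DMSO and 1132 to 1279 CPM with SCH772984, where KRT8 and KRT18 fell and KRT19 was not called (log2 fold change 0.11). The part of these shifts in the results below was not tested.

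Levels within a gene are given below as TMM-normalized CPM, and levels between genes as TMM-normalized RPKM, which is CPM divided by the exon length in kilobases. Under DMSO the order by RPKM was ERRFI1 at 171 ± 2.33 (SD, n = 3), EREG at 68.5 ± 1.99, AREG at 49.2 ± 3.07, EGFR at 23.1 ± 1.10, ERBB2 at 15.2 ± 0.608, HBEGF at 6.06 ± 0.539, BTC at 4.56 ± 0.209 and ERBB3 at 0.418 ± 0.0669. No neighbors in this order overlapped among the 3 DMSO libraries. Among the 16028 protein-coding genes with a count, ERRFI1 lay above 98.7%, EREG above 96.1%, AREG above 94.1%, EGFR above 86.7% and ERBB2 above 80.5% by DMSO RPKM. HBEGF and BTC lay nearer the middle, above 63.9% and 58.8%, and ERBB3 lay above 33.2%. TGFA and NRG1 were at the limit of detection, with at most 3 counts in any library, and neither passed the filter on low counts. Thus the ligand RNA of these cells under DMSO was mostly EREG and AREG, and the receptor RNA was EGFR and ERBB2.

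**Figure D1:**
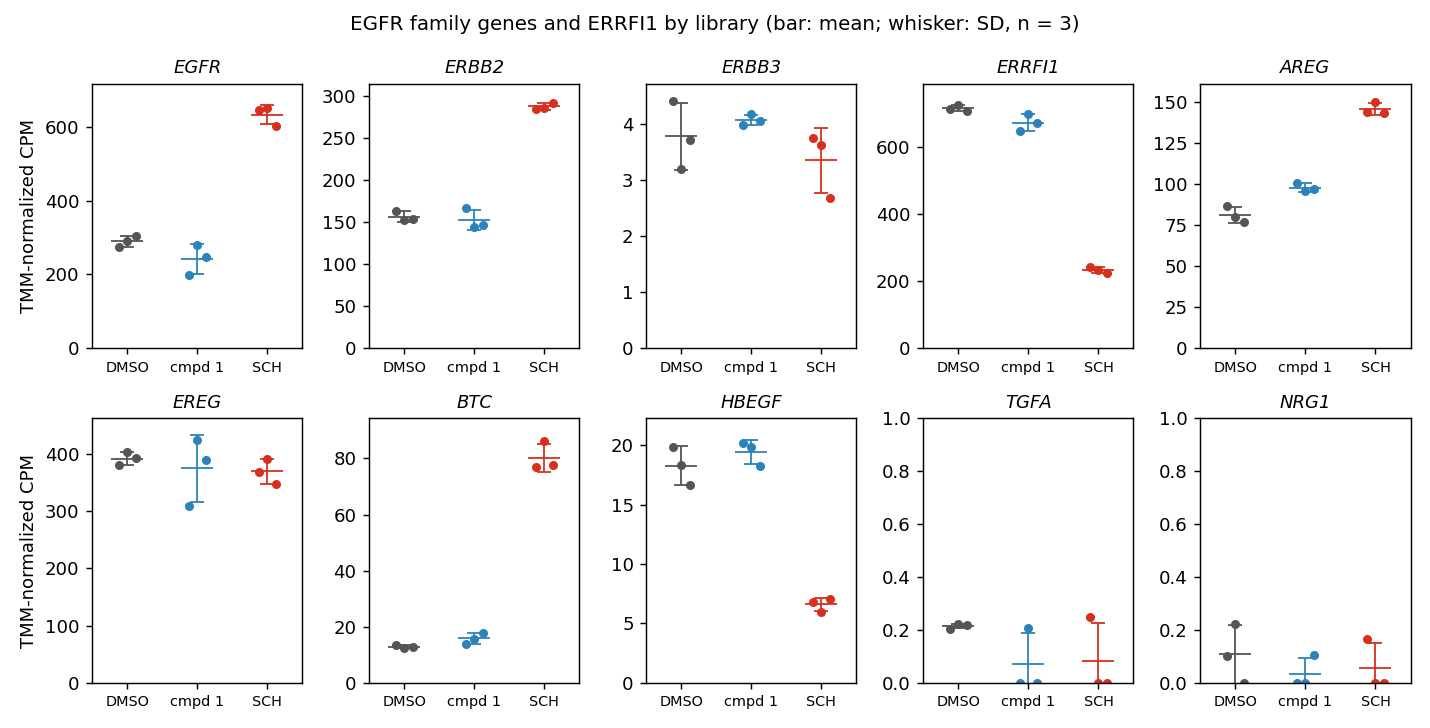
Levels of the 10 genes in each library, in TMM-normalized CPM on linear axes that start at 0, with the mean as a bar and the SD of 3 libraries as whiskers. With SCH772984 (SCH), EGFR, ERBB2, AREG and BTC lie above and ERRFI1 and HBEGF below every other library, while EREG and ERBB3 overlap, and TGFA and NRG1 stay at 3 counts or fewer.

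The stretch just upstream of the start site is shown for 4 genes, because AREG and EREG are neighbors that behaved differently with SCH772984 and because EGFR and its inhibitor ERRFI1 moved in opposite directions. Each is 200 bases of RefSeq sequence on GRCh38.p14, ending 11 bases before the annotated start and written 5′ to 3′ on the gene's strand. EREG is at chr4:74364935-74365134 (plus strand), AREG at chr4:74444926-74445125 (plus strand), EGFR at chr7:55018807-55019006 (plus strand) and ERRFI1 at chr1:8026320-8026519 (minus strand). Capitals mark matches on either strand to any of 7 motifs that were searched.
EREG: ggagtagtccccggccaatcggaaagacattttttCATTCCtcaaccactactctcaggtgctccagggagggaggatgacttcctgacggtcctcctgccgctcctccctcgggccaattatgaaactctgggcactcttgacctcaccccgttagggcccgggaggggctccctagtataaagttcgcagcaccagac
AREG: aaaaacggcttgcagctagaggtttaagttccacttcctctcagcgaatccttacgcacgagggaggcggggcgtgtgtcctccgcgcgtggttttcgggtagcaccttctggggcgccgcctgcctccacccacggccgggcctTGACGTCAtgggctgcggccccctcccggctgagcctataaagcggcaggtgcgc
EGFR: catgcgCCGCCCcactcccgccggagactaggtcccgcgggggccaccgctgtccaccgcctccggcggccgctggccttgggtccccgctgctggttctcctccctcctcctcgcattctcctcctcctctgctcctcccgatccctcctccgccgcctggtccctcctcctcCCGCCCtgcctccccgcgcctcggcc
ERRFI1: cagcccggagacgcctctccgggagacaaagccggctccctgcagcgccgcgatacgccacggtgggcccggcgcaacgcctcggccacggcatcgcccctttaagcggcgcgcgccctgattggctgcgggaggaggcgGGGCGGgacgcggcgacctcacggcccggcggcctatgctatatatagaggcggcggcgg

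The motifs were AP-1 (TGANTCA), the cyclic AMP response element or CRE (TGACGTCA), ETS (CCGGAAG), forkhead (TGTTTAC), the GC box (GGGCGG), TEAD (CATTCC) and the kappaB motif, on both strands in the 250 bases before the start. In 35116 human promoters the shares with a match were 6.57% for AP-1, 1.65% for CRE, 8.52% for ETS, 2.98% for forkhead, 42.6% for the GC box, 11.9% for TEAD and 5.21% for kappaB. Promoters were found for 8 of the 10 genes, all but ERBB3 and NRG1, with 2 start sites each for EGFR and TGFA. AREG held a CRE that began 65 bases before the start, and a GC box outside the printed stretch. EREG held only a TEAD match, 175 bases before the start, and ERRFI1 only a GC box, 70 bases before it. EGFR held 2 GC boxes at the start shown, and its other start site held AP-1 matches at 232 and 136 bases and a TEAD match at 114 bases before it. ERBB2 held an AP-1 match at 222 bases and ETS matches at 26 and 14 bases before the start, BTC held a forkhead match at 231 bases, HBEGF held 5 GC boxes, and TGFA held 3 GC boxes and a kappaB match. These are matches of letters in short windows and are not evidence of binding.

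With SCH772984 EGFR and ERBB2, the more abundant receptors, rose, the ligands moved in different directions, and the inhibitor fell. Of the 8 genes tested, 4 rose (EGFR, ERBB2, AREG and BTC), 2 fell (HBEGF and ERRFI1) and 2 did not pass the threshold (EREG and ERBB3) by the quasi-likelihood test of edgeR, with Benjamini-Hochberg adjustment over all genes and a threshold of 0.05. Across the 13834 genes tested in this comparison, 37.2% rose and 35.5% fell, so calls in 6 of 8 genes were close to the 72.8% called in either direction among all genes. The size and direction for each gene are therefore described below rather than the number of calls. The median log2 fold change of the 8 was 0.37, beside 0.03 over all genes tested.

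EGFR (ENSG00000146648, chr7:55019021-55211628) binds all ligands listed here except NRG1. Its level was 276, 289.6 and 303 CPM with DMSO and 646, 653 and 604 CPM with SCH772984. The groups did not overlap, and the lowest SCH772984 library was nearly 2-fold above the highest DMSO library. EGFR rose 2.18-fold (log2 fold change 1.13 ± 0.06, SE, edgeR adjusted p = 4.68e-21). EGFR-AS1, which lies opposite to it, had at most 12 counts in any library.

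ERBB2 (ENSG00000141736, chr17:39687914-39730426) was at 164, 152 and 154 CPM with DMSO and at 285, 286 and 293 CPM with SCH772984. These groups did not overlap either. ERBB2 rose 1.83-fold (log2 fold change 0.87 ± 0.06, edgeR adjusted p = 8.69e-17). Exons of ERBB2 overlap PGAP3 and MIEN1 on the opposite strand, which had 101 to 126 and 147 to 175 counts with DMSO and 208 to 297 and 257 to 331 counts with SCH772984, beside 1377 to 1598 and 3388 to 4359 counts for ERBB2. The strand setting of the counting is not given in the sources used here, and the part of these overlaps in the ERBB2 counts was not tested.

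ERBB3 (ENSG00000065361, chr12:56076799-56103505) was low throughout, with 43, 29 and 34 counts under DMSO and 45, 43 and 40 counts under SCH772984. Its log2 fold change was -0.19, with a 95% interval of -0.70 to 0.32 (edgeR adjusted p = 0.506). Smaller changes than the ends of this interval could not be told apart from none at this depth.

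Among the ligands, BTC (betacellulin, ENSG00000174808, chr4:74744759-74794686), which binds EGFR and ERBB4, differed most. It was at 13.4, 12.3 and 12.8 CPM with DMSO and at 76.9, 86.1 and 77.7 CPM with SCH772984, with no overlap. BTC rose 6.21-fold (log2 fold change 2.64 ± 0.10, edgeR adjusted p = 3.2e-27). By RPKM it moved from 4.56 ± 0.209 with DMSO, below HBEGF, to 28.5 ± 1.81 with SCH772984, where its libraries overlapped those of ERBB2.

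AREG (amphiregulin, ENSG00000109321, chr4:74445134-74455009), a low-affinity ligand of EGFR, was at 86.6, 80.0 and 76.7 CPM with DMSO. With SCH772984 it was at 144, 149.8 and 144 CPM, above all DMSO libraries. AREG rose 1.79-fold (log2 fold change 0.84 ± 0.07, edgeR adjusted p = 1.17e-14).

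EREG (epiregulin, ENSG00000124882, chr4:74365143-74388751), which binds EGFR and ERBB4, was the leading ligand by RPKM under DMSO. It was at 380.0, 403 and 393 CPM with DMSO and at 369, 391 and 348 CPM with SCH772984, and the groups overlapped. Its log2 fold change was -0.09, with a 95% interval of -0.21 to 0.03 (edgeR adjusted p = 0.176), and was 0.08 when libraries were scaled by their totals alone, a scaling that moved the median of all genes tested from 0.03 to 0.20. Relative to that median EREG was lower under both scalings, and in neither did it pass the threshold.

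HBEGF (ENSG00000113070, chr5:140332843-140346631), the heparin-binding ligand of EGFR and ERBB4, was the only tested ligand that fell. It was at 19.9, 18.3 and 16.6 CPM with DMSO and at 6.82, 5.99 and 7.05 CPM with SCH772984, with no overlap. The level was 2.77-fold lower (log2 fold change -1.47 ± 0.15, edgeR adjusted p = 6.6e-12). TGFA (ENSG00000163235, chr2:70447280-70554193), another EGFR ligand, had 2 counts in each DMSO library and 3, 0 and 0 with SCH772984. NRG1 (ENSG00000157168, chromosome 8), a ligand of ERBB3 and ERBB4, had 1, 2 and 0 counts with DMSO and 2, 0 and 0 with SCH772984. For both, no difference could be detected at this depth and no fold is given.

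ERRFI1 (ENSG00000116285, chr1:8004404-8026308) was at 713, 726 and 707 CPM with DMSO and at 242, 232 and 224 CPM with SCH772984. No library of either group came near the other group. ERRFI1 was 3.08-fold lower (log2 fold change -1.63 ± 0.06, edgeR adjusted p = 4.3e-27). In RPKM there were 6.97 to 7.74 units of ERRFI1 for each unit of EGFR under DMSO and 1.06 to 1.12 under SCH772984. The level of the inhibitor thus came close to that of its target receptor in every SCH772984 library.

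**Figure D2:**
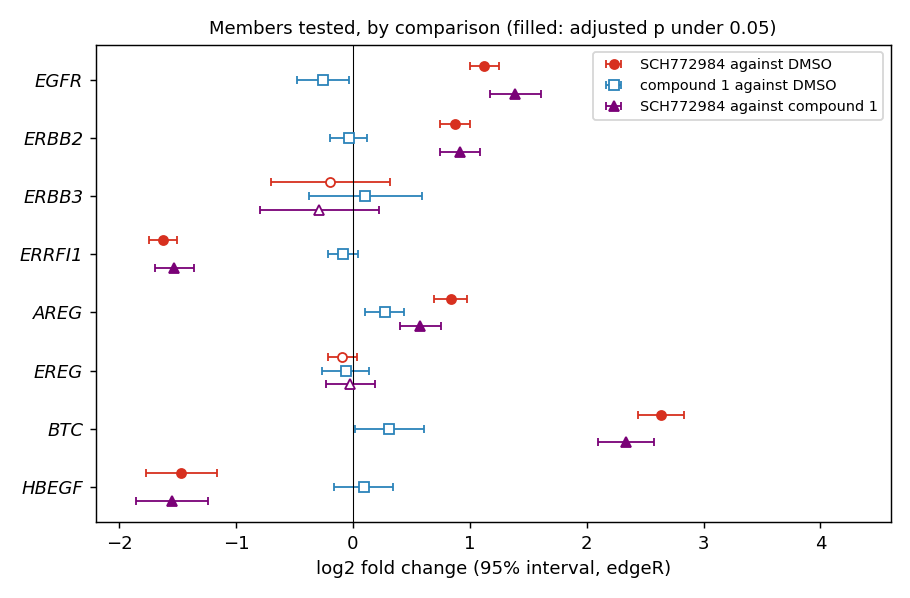
log2 fold changes with 95% intervals for the 8 genes tested (rows) in the 3 comparisons, from separate edgeR fits; filled symbols have an adjusted p under 0.05. SCH772984 differs from DMSO and from compound 1 in the same direction at EGFR, ERBB2, AREG, BTC, HBEGF and ERRFI1, and all squares of compound 1 against DMSO are open, the highest at 0.31 (BTC).

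With compound 1 at the same dose and time, none of the 8 genes tested passed the adjusted threshold in the edgeR fit or with DESeq2 on the same genes. Over all 12849 genes tested, 0.49% were called higher and 0.374% lower (0.864% in all), so a count of 0 among 8 is near this background. At an unadjusted p under 0.05, AREG and BTC were higher and EGFR was lower, where 7.35% and 7.69% of all genes were. Each of these is described below with the library that stood apart left out. The median log2 fold change of the 8 was 0.03, beside 0.00 over all genes.

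AREG was at 101, 95.8 and 96.7 CPM with compound 1, above every DMSO library. Its log2 fold change was 0.27 (95% interval 0.11 to 0.44, edgeR adjusted p = 0.112). Without compound 1 replicate 1 it was 0.25 and passed the threshold (adjusted p = 0.0169), when 3.46% of all genes were called higher. BTC was at 14.0, 15.8 and 17.9 CPM, also above every DMSO library, with a log2 fold change of 0.31 (0.02 to 0.60, edgeR adjusted p = 0.301) and of 0.39 without compound 1 replicate 1 (adjusted p = 0.0793).

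EGFR was at 198, 281 and 248 CPM with compound 1, and the groups overlapped because replicate 2 lay within the DMSO range. Its log2 fold change was -0.25 (95% interval -0.48 to -0.03, edgeR adjusted p = 0.259). Replicate 1 was the lowest library, and without it the log2 fold change was -0.13 (adjusted p = 0.172). It passed the threshold in 2 of 13 alternative fits, those with no filter on low counts (adjusted p = 0.0326) and with the replicate block. EREG was likewise lowest in compound 1 replicate 1, at 309 CPM beside 425 and 389.8 CPM in the other libraries. Its log2 fold change was -0.06 (95% interval -0.26 to 0.14, edgeR adjusted p = 0.816) and 0.06 without that library.

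For the other genes the intervals with compound 1 spanned 0. The log2 fold change with compound 1 was -0.03 for ERBB2 (95% interval -0.19 to 0.12), -0.09 for ERRFI1 (-0.21 to 0.04) and 0.09 for HBEGF (-0.16 to 0.34). Without compound 1 replicate 1 these values were -0.10, -0.06 and 0.06, and none passed the threshold. ERBB3 had 37, 40 and 39 counts and a log2 fold change of 0.11, which was 0.12 without compound 1 replicate 1 and 0.00 without DMSO replicate 2. TGFA had 0, 2 and 0 counts and NRG1 had 0, 0 and 1. A change in ERRFI1 or HBEGF as large as that with SCH772984 lay outside these intervals.

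The inhibitors have different targets, and they were compared directly at their shared dose of 1 μM and time of 24 h. In this fit 33.7% of the 13863 genes tested were higher and 32.6% lower with SCH772984 (66.3% in all), and of the 8 genes 4 were higher and 2 lower, again near this background. The log2 difference was 1.39 for EGFR (edgeR adjusted p = 2.69e-10), 0.92 for ERBB2 (5.1e-09), 0.57 for AREG (4.36e-06) and 2.33 for BTC (4.73e-13). It was -1.55 for HBEGF (edgeR adjusted p = 1.24e-08) and -1.53 for ERRFI1 (1.1e-12). EREG (-0.02, adjusted p = 0.863) and ERBB3 (-0.29, adjusted p = 0.304) did not pass the threshold, and EREG turned to 0.11 with scaling by library totals. Without compound 1 replicate 1 the log2 difference was 1.26 for EGFR, 0.98 for ERBB2, 0.59 for AREG, 2.25 for BTC, -1.52 for HBEGF and -1.56 for ERRFI1, all called, and -0.14 for EREG and -0.31 for ERBB3, neither called. These values share the SCH772984 libraries with the comparison against DMSO and are not independent of it.

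Receptors were then set against ligands by summing RPKM within each library. The summed level of EREG, AREG, BTC, HBEGF, TGFA and NRG1 was 125 to 130.4 RPKM with DMSO, 127 to 145 RPKM with compound 1 and 178 to 192 RPKM with SCH772984. The summed level of EGFR, ERBB2 and ERBB3 was 38.2 to 39.6 RPKM with DMSO, 32.4 to 36.9 RPKM with compound 1 and 76.9 to 80.3 RPKM with SCH772984. Both sums were higher with SCH772984 than with DMSO, the receptor sum by the larger fold and the ligand sum by more RPKM.

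The ratio of ligand to receptor RPKM was 3.40, 3.39 and 3.17 in the DMSO libraries and 2.28, 2.39 and 2.31 in the SCH772984 libraries. With compound 1 it was 3.92, 3.93 and 4.04. The 3 groups did not overlap, with SCH772984 lowest and compound 1 highest. Relative to DMSO the log2 ratio differed by -0.51 ± 0.04 (SE) with SCH772984 and by 0.26 ± 0.04 with compound 1, given as a description of a sum over chosen genes. Both differences had p = 0.1 in an exact permutation test over libraries, the smallest p that 3 against 3 libraries allow. The size of the difference depended on the genes summed. With SCH772984 it was -0.03 without EREG, -0.34 without EGFR and -0.79 on counts not divided by length, and with compound 1 it was 0.13 without AREG or without EGFR and 0.42 without EREG. Leaving out compound 1 replicate 1 gave 0.26 for compound 1 against DMSO.

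The make-up of the ligand RNA differed as well. EREG made up 51.0% to 54.8% of ligand RPKM with DMSO and 34.2% to 35.7% with SCH772984, whereas AREG went from 37.1% to 40.3% up to 47.4% to 48.9%. The compound 1 ranges were 42.6% to 51.4% for EREG and 40.2% to 48.2% for AREG. Compound 1 replicate 1 held the lowest of these EREG shares and the highest AREG share, which lay within the SCH772984 range. BTC made up 3.36% to 3.66% with DMSO and 15.1% to 15.9% with SCH772984, and HBEGF 4.40% to 5.05% and 1.03% to 1.31%. With SCH772984 the order by RPKM was AREG at 88.4 ± 2.20, EREG at 64.6 ± 3.78, ERRFI1 at 55.6 ± 2.08, EGFR at 50.7 ± 2.12, BTC at 28.5 ± 1.81, ERBB2 at 27.9 ± 0.389, HBEGF at 2.19 ± 0.184 and ERBB3 at 0.371 ± 0.0642. BTC and ERBB2 were the only neighbors in it whose libraries overlapped. With compound 1 the order was that of DMSO, but the libraries of EREG and AREG, of EGFR and ERBB2, and of HBEGF and BTC overlapped.

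**Figure D3:**
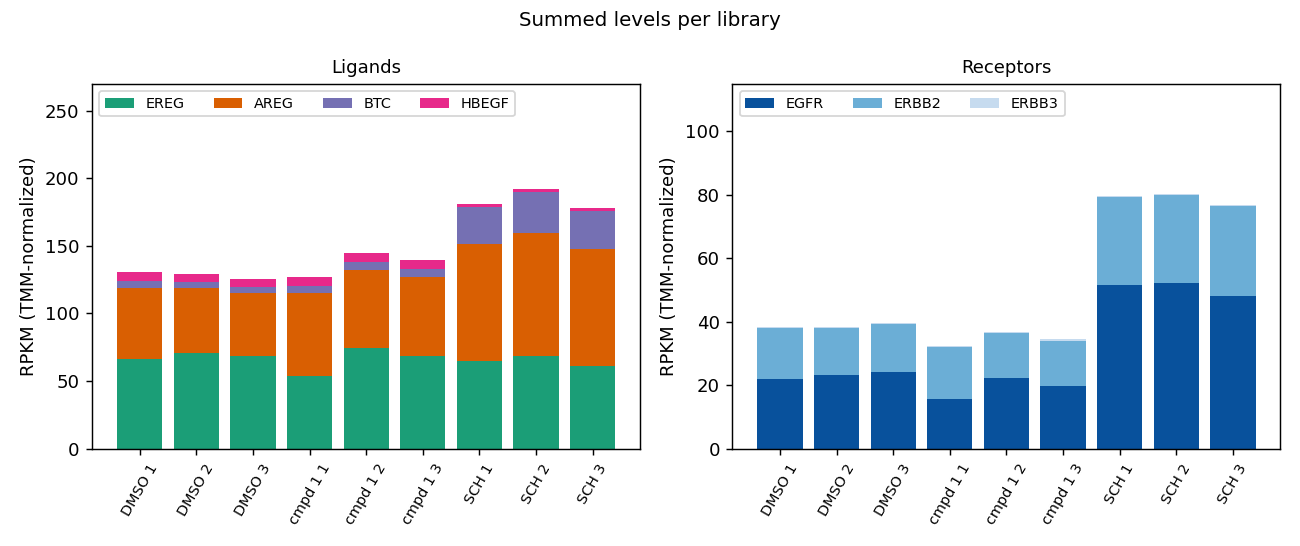
Summed TMM-normalized RPKM of the ligands (left) and receptors (right) in each of the 9 libraries, stacked by gene on linear axes from 0; TGFA and NRG1 are left out because they had at most 3 counts. The receptor stack is about 2-fold higher with SCH772984. The BTC part of the ligand stack is at most 3.66% with DMSO, at most 4.56% with compound 1 and at least 15.1% with SCH772984, while the EREG part stays near the same height.

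EREG, AREG and BTC lie in a row on chromosome 4 with EPGN (epigen, ENSG00000182585), a further EGFR ligand, and these are the 4 protein-coding genes in a span of 486 kb. This grouping by position was made after the values were seen. EPGN, EREG and AREG are read from the plus strand and BTC from the minus strand, with gaps of 49.8 kb, 56.4 kb and 289.7 kb between neighbors. EPGN had 47, 49 and 33 counts with DMSO, 57, 46 and 67 with compound 1 and 185, 206 and 203 with SCH772984. By RPKM EPGN was at 2.54 ± 0.505 with DMSO and 8.53 ± 1.04 with SCH772984, where HBEGF was at 2.19 ± 0.184. EPGN was not part of the ligand sums, shares and ratios above. It rose with SCH772984 (log2 fold change 1.73, edgeR adjusted p = 4.13e-12) and did not pass the threshold with compound 1 (0.37). Thus 3 of the 4 genes rose with SCH772984, beside 37.2% of all genes, and EREG, which lies between EPGN and AREG, was not called.

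**Figure D4:**
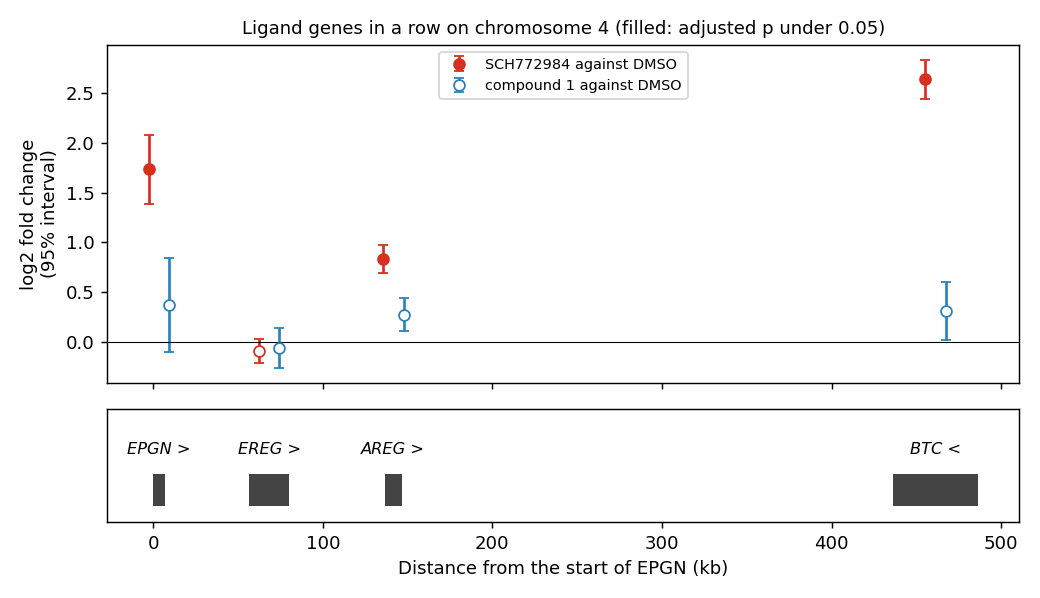
log2 fold changes with 95% intervals for the 4 protein-coding ligand genes on chromosome 4, placed by distance from the start of EPGN in kb, with gene bodies and direction (> plus, < minus) in the lower strip. With SCH772984 EPGN, AREG and BTC lie above 0 at 1.73, 0.84 and 2.64, and EREG lies at -0.09.

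The remaining family genes were low. EGF, the founding ligand, had 0, 0 and 2 counts with DMSO and 6, 14 and 14 with SCH772984, and NRG4 had 0, 2 and 3 counts and 7, 14 and 6 counts, both with at most 2 counts in any compound 1 library. NRG2 had at most 9 counts, ERBB4 at most 3 and NRG3 none. These genes did not pass the filter on low counts and were not tested.

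Other genes of the pathway were taken from 4 hand-written lists of 58 genes, of which 49 were tested with SCH772984. Of these, 19 rose and 18 fell, beside the 37.2% and 35.5% over all genes, and the median log2 fold change was -0.05. Of the genes for the release of ligands from the membrane, 6 of 11 tested were higher and 2 lower, with a median log2 fold change of 0.22. ADAM19, a metalloprotease, was at 1.54, 0.883 and 0.657 CPM with DMSO and at 20.8, 18.9 and 18.7 CPM with SCH772984 (log2 fold change 4.21, edgeR adjusted p = 1.9e-21). RHBDF1, a partner of the main ligand sheddase ADAM17, rose from 21.4 ± 1.18 to 52.5 ± 5.37 CPM (log2 fold change 1.29, edgeR adjusted p = 4.43e-16). RHBDF2, of the same list and named after its values were seen, was at 57.1 ± 3.34 and 51.15 ± 3.41 CPM. It did not pass the threshold (log2 fold change -0.16, edgeR adjusted p = 0.0707). The main sheddases of these ligands, named for that role after their values were seen, were ADAM17, which rose (log2 fold change 0.69, edgeR adjusted p = 2.57e-11), and ADAM10, which did not pass the threshold (log2 fold change -0.13, adjusted p = 0.0557). The genes called lower in this list were ADAM15 and FRMD8.

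Among adaptors and other proteins that bind the activated receptors, 5 of 16 tested rose and 6 fell with SCH772984, near the 37.2% and 35.5% over all genes. SHC1, the adaptor that brings GRB2 to the receptors, was at 533 ± 5.32 CPM with DMSO and at 129 ± 5.96 CPM with SCH772984 (log2 fold change -2.05, edgeR adjusted p = 3.91e-30). PTPN11, which encodes the phosphatase SHP2, was at 274 ± 9.80 and 130.2 ± 9.55 CPM (log2 fold change -1.08, edgeR adjusted p = 2.63e-19). Of the genes for receptor uptake and attenuation, 7 of 21 tested rose and 10 fell, beside the same shares over all genes. The receptor phosphatase PTPRJ rose from 31.1 ± 2.48 to 89.4 ± 3.12 CPM (log2 fold change 1.52, edgeR adjusted p = 7.03e-21) and PTPRK, another receptor phosphatase, from 7.41 ± 0.638 to 15.7 ± 1.10 CPM (log2 fold change 1.07, edgeR adjusted p = 2.99e-08).

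With compound 1, 47 genes of these lists were tested and none passed the adjusted threshold in edgeR or DESeq2. At an unadjusted p under 0.05, ADAM8 was higher and PTPN11, VAV2, CBL and EPN1 were lower, genes that were named after their values were seen, beside 7.35% and 7.69% of all genes. Leaving out compound 1 replicate 1 called 4 of 47 genes of the lists lower, beside 6.1% of all genes. In the direct comparison, 17 of 49 were higher and 14 lower with SCH772984 than with compound 1, near the 33.7% and 32.6% over all genes.

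**Figure D5:**
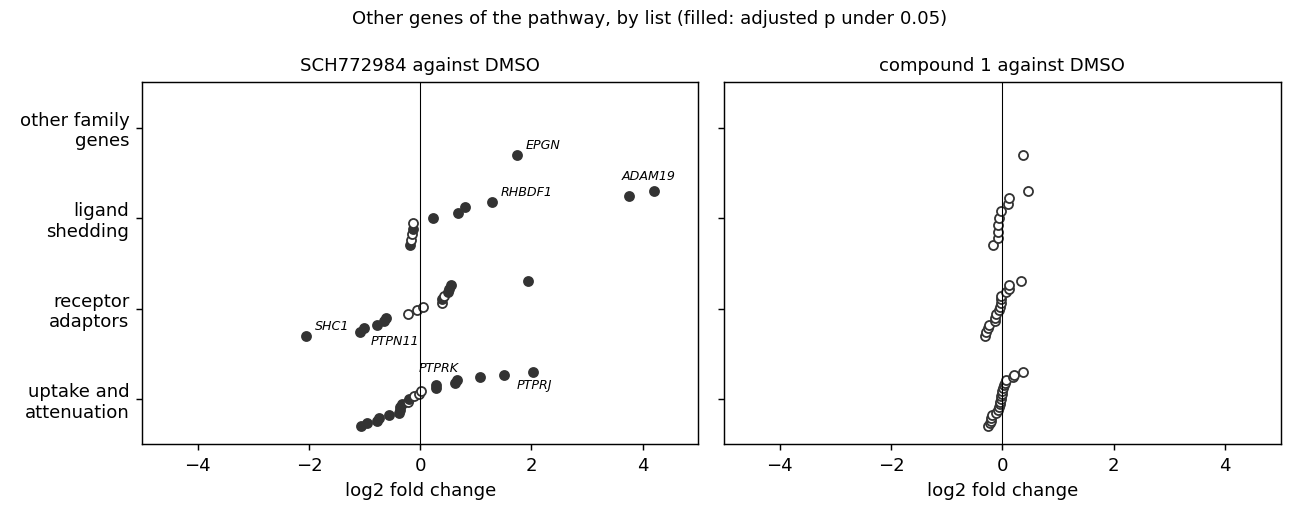
log2 fold changes of the tested genes of the 4 lists, with SCH772984 on the left and compound 1 on the right; filled points have an adjusted p under 0.05, and points within a list are spread vertically by rank. With SCH772984 filled points lie on both sides of 0 (19 higher, 18 lower), and with compound 1 all 47 points are open.

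For each of the 6 genes that passed the threshold, the protein-coding genes with the most similar pattern were taken by Pearson's r of log2 CPM over the 9 libraries, among 10008 candidates. They were UTRN and BMPR2 for EGFR, SLC12A7 and ITGB5 for ERBB2, ERAP2 and PIGP for AREG, NXT1 and TEX30 for HBEGF, SCD5 and ERO1B for BTC, and HSPA9 and PHLDB2 for ERRFI1. The 12 values of r were 0.993 to 0.999. The SCH772984 libraries stand apart from the other 6 in these genes, and over the 6 DMSO and compound 1 libraries alone the same pairs had r of 0.772 to 0.988. These values are a description, taken as the highest of many.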

How the data were processed

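RNA of MIA PaCa-2 cells was sequenced by Novogene. The authors deposited whole-number counts of reads per gene for 9 libraries, without normalization. The submitters' processing notes name HISAT2 2.0.5, featureCounts 1.5.0-p3 and hg38, and the strand setting is not given in the sources used here. All 58735 genes matched GENCODE release 29. Totals of 9464432 to 13887859 counts set the counting error.

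Libraries were grouped by their labels, and each comparison was fitted separately over all genes with edgeR 4.0.16 in R 4.3.3 (TMM scaling, filterByExpr with a minimum count of 10 and a total of 15, robust quasi-likelihood test, Benjamini-Hochberg adjustment, threshold 0.05). The study called genes at p under 0.05 and names no adjustment, so an unadjusted threshold was one alternative. RPKM used TMM-scaled totals and the deposited exon length. Intervals are at 95%. The labels do not say whether libraries came from separate cultures, so p-values measure the spread between these libraries, which may be technical. DESeq2 1.42.0, other scalings, filters and fits, and leaving out each library were alternatives.

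The members and lists were chosen with earlier results of these data known. Named were all members, in each pathway list the 2 called genes with the largest change with SCH772984 and an average of at least 5 CPM, any pathway gene called with compound 1, and the 2 genes most like each called member. Other genes are named in the text as chosen after their values were seen, or as controls and neighbors. Promoter sequences came from RefSeq (GRCh38.p14).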

Additional observations from a re-analysis of the deposited data

How the results depend on the processing

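The 6 genes called with SCH772984 kept their call and direction against DMSO and against compound 1 under all 13 alternatives that give a fold change (scaling, filter, joint fit, replicate block, DESeq2 and each library left out). Requiring at least 2-fold took the members called higher from 4 to 2 in both comparisons, the pathway genes from 19 to 8 higher and 18 to 4 lower against DMSO, and from 17 to 8 higher and 14 to 1 lower against compound 1. At that threshold 18.2% of all genes were higher and 10.6% lower against DMSO, and 16.5% and 10.1% against compound 1.

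With compound 1 the calls were less stable. An unadjusted threshold gave 2 members higher and 1 lower, and 1 pathway gene higher and 4 lower. EGFR was called lower with no filter on low counts (1 member, log2 fold change -0.26) and with the replicate block (1 member, -0.27, adjusted p = 0.0495). Leaving out 1 library gave 0 to 1 members higher and 0 to 4 pathway genes lower. The number of genes called over the table moved with the same settings, from 63 higher and 48 lower to 189 and 228 with no filter on low counts (0.73% and 0.881% of the genes tested), to 193 and 219 with the replicate block (1.5% and 1.7%), to 117 and 119 with DESeq2, and to 5 to 453 and 3 to 798 with 1 library left out. Same-numbered libraries did not deviate together (correlations of 0.01 to 0.04 for SCH772984 and DMSO, of -0.03 to 0.12 for compound 1 and DMSO, and of -0.07 to 0.11 for SCH772984 and compound 1), so replicate numbers were not used as pairs.

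Signs turned only for genes that were not called. For EREG the log2 fold change was 0.084 with SCH772984 under scaling by library totals, and -0.168 to 0.0619 with compound 1 with 1 library left out (the highest without compound 1 replicate 1). SCH772984 against compound 1 gave EREG 0.11 with scaling by totals, 0.0539 with at least 10 counts in every library, and -0.144 to 0.0723 with 1 library left out. ERBB3 with compound 1 ranged from 0.00 to 0.23 with 1 library left out (-0.0003 without DMSO replicate 2).

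The log2 ligand to receptor ratio moved with the genes summed. For SCH772984 against DMSO it was -0.76 without AREG, -0.0345 without EREG, -0.70 without BTC, -0.34 without EGFR, -0.60 without ERBB2 and -0.79 on counts not divided by length. For compound 1 against DMSO it was 0.13 without AREG, 0.42 without EREG, 0.13 without EGFR, 0.36 without ERBB2 and 0.18 on such counts. For SCH772984 against compound 1 it was -0.89 without AREG, -0.46 without EREG, -0.72 without HBEGF, -0.95 without BTC, -0.47 without EGFR, -0.96 without ERBB2 and -0.97 on such counts. The cause of these shifts was not tested. TGFA and NRG1 entered only the fits with no filter on low counts, where the members called with SCH772984 against DMSO stayed at 4 higher and 2 lower.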
